A study of Drosophila melanogaster with 12 samples.

Results

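The genes described here were grouped by name as lipid and storage genes of the fat body, and the cells in which each acts were not measured. They are the fatty acid synthases FASN1 and FASN2, the larval serum protein gene Lsp1beta, the lipase gene Lip2, the acyl-CoA oxidase gene Acox3 and the glycerophosphate oxidase gene Gpo3. They were chosen by name, with their differences between mutant and wild-type libraries already known, and are 6 of the 5227 genes of chromosome arms 2L and 3L that could be named. Those differences between genotypes are therefore given as a description with no test, and nothing rests on them. Comparisons of head with body within a genotype, and of poly(A) sites between wild-type heads and bodies, were not what chose the genes and are tested. No read threshold entered the choice.

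The data come from 3'READS and 3'READS+, which capture RNA fragments ending in a poly(A) tail, so that each read marks the 3' end of a transcript. Libraries were made from heads and bodies dissected from adult Drosophila melanogaster of 2 strains. Wild type was w1118, with 4 head and 4 body libraries. The mutant strain carried a C4 allele at RpII215, the gene of the largest RNA polymerase II subunit, and is known for slow transcript elongation. It gave 2 head and 2 body libraries. The allele and the rest of the strain's genetic background cannot be told apart, and the sources used here do not give the sex or exact age of the flies. RpII215 is on X, where genes were not named, and was not analysed here. Nothing in the labels ties replicates to separate groups of flies. The p-values therefore cover the spread between libraries, which may be technical.

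In insects the fat body does much of the work shared in mammals by liver and adipose tissue. It builds fatty acids from acetyl-CoA, stores them as triglyceride in lipid droplets, and releases them through lipases. Fatty acids are then shortened by beta-oxidation, in peroxisomes for the longest chains and in mitochondria for most others. Glycerol-3-phosphate gives the backbone of triglyceride and also carries electrons to the respiratory chain. The larval fat body secretes serum proteins of the hexamerin family, which are taken up again and kept as an amino acid store through metamorphosis.

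The libraries were of whole heads and whole bodies, so the cell type behind a read was not measured, and fewer cells of a type cannot be told apart from less RNA per cell. Oenocytes could not be followed, since 0 of their 7 listed markers lie in the named regions. Of the fat body genes that the regions hold, Fbp2 ranged from 0 to 272 CPM and Lsp1gamma from 0 to 112 CPM over the 12 libraries. CPM (counts per 1e+06) here refers to the reads of named genes after TMM scaling. Markers of the male accessory gland and testis (10 genes, all detected in bodies) summed to between 13210 and 36270 CPM in wild-type bodies, and to between 43.9 and 752 CPM over all heads. The 6 eggshell genes summed to at most 3.25 CPM in any body library, with Vm32E and Vm34Ca at 0 in wild-type bodies, but reached 58.2 CPM in 1 wild-type head library.

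Libraries held 2219693 to 9062730 reads, of which 287089 to 1234554 fell in named genes. They form 2 far-apart ranges of sample numbers, called block 1 (wild-type replicates 1 and 2) and block 2 (wild-type replicates 3 and 4 and the mutants). The sources used here do not say which protocol made which library. Wild-type libraries of the blocks did not overlap at 61.7% of tested genes in heads and 67.6% in bodies, and block 1 heads had neuronal marker sums (5 genes) of 48620 and 15580 CPM against 3351 and 3540 CPM in block 2. Not every neuronal marker shared that rise: VGlut had 691 ± 87.3 CPM over all 4 wild-type heads and 754 ± 55.6 CPM in those of block 2. Because of these block differences, levels of the mutant were compared in mean and fold with wild-type libraries of block 2, whereas 3' ends are given for both blocks.

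The synthases come first. FASN1 (FBgn0283427) lies on 2L from 3056598 to 3068177 on the plus strand, and FASN2 (FBgn0042627) from 3043947 to 3056143 on the same strand, 454 nt upstream of it. Both encode multidomain fatty acid synthases.

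FASN1 had 1181, 838, 293 and 450 CPM in wild-type head replicates 1 to 4. In wild-type bodies it had 739, 508, 171 and 207 CPM. Mutant heads had 108 and 107 CPM, and mutant bodies 36.1 and 99.2 CPM. All 4 mutant libraries lay below every wild-type library, and within wild type the block 1 libraries lay above those of block 2 in both tissues. The wild-type head mean was 691 ± 399 CPM (SD, n = 4) and the body mean 406 ± 269 (n = 4), and the groups overlapped (log2 fold change of head over body 0.61, SE 0.30, edgeR quasi-likelihood test with Benjamini-Hochberg adjustment, adjusted p = 0.127). Within each block, both heads lay above both bodies. The value passed with block 2 alone (0.91, edgeR adjusted p = 0.0271) and without head replicate 2 or body replicate 1 (0.0317 and 0.0471), but not with block 1 alone (0.33, edgeR adjusted p = 0.694). In the mutant the log2 fold change of head over body was 0.69 (SE 0.44, edgeR adjusted p = 0.216), and it passed without mutant body replicate 2 (1.26, edgeR adjusted p = 0.0216). Against block 2 wild type, mutant means were 3.47-fold lower in heads (107 ± 0.701 against 372 ± 111 CPM, n = 2 each) and 2.79-fold lower in bodies (67.7 ± 44.6 against 189 ± 25.3 CPM, n = 2 each). The body log2 fold change was −2.31 without mutant body replicate 2 and −1.02 without mutant body replicate 1.

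FASN2 followed the tissue. Wild-type heads had 16.6, 68.4, 106 and 89.6 CPM, and wild-type bodies 142, 120, 1285 and 1923 CPM. Mutant heads had 55.2 and 91.5 CPM and mutant bodies 292 and 2097 CPM. Every head library lay below every body library in each genotype. FASN2 fell in heads in wild type (70.2 ± 38.9 against 867 ± 889 CPM, n = 4 each, log2 fold change −3.07, SE 0.63, edgeR adjusted p = 0.00295) and in the mutant (73.3 ± 25.7 against 1194 ± 1276 CPM, n = 2 each, −3.92, SE 0.85, edgeR adjusted p = 0.00480). The mutant value was −2.29 without mutant body replicate 2 and −4.70 without mutant body replicate 1, and passed in both cases (edgeR adjusted p = 0.00246 and 5.02e-04). The wild-type value was −3.68 without head replicate 2. With block 1 alone the wild-type value was −1.98 (edgeR adjusted p = 0.180). Body levels in that block were 131 ± 15.7 CPM against 1604 ± 451 CPM in block 2 (n = 2 each), a 12.2-fold difference. Male accessory gland and testis markers were also higher in the bodies of block 2, and their part in the FASN2 values was not tested. Between genotypes FASN2 overlapped in both tissues, 1.34-fold lower in mean in the mutant in each.

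**Figure D1:**
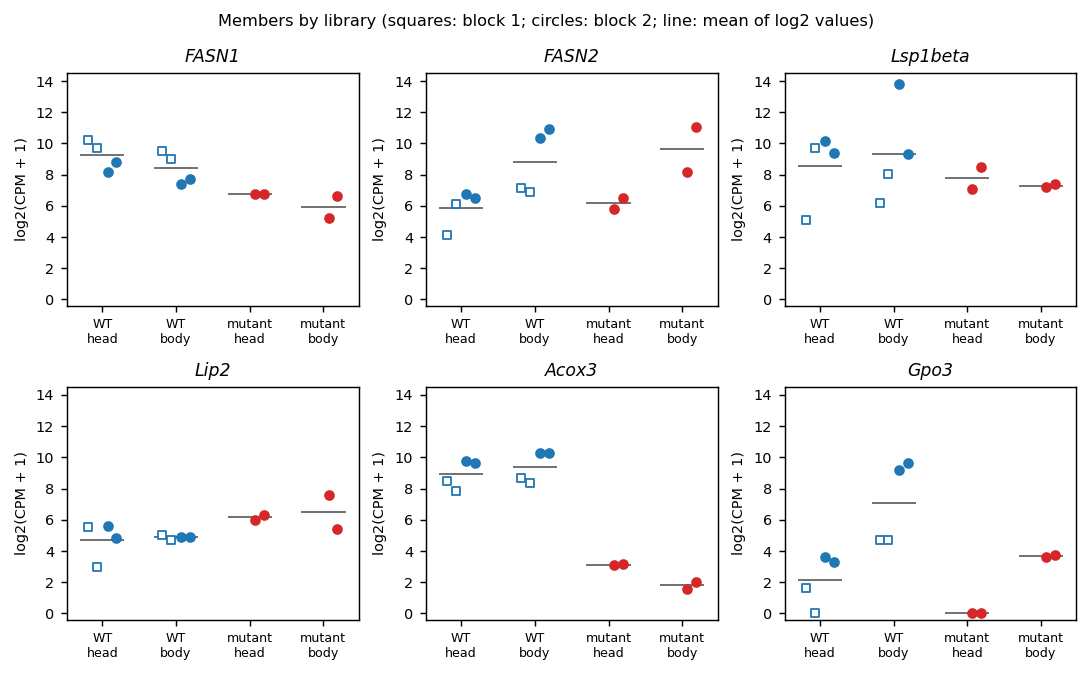
Level of each of the 6 genes by library, as log2(CPM + 1), for wild-type (WT, blue) and mutant (red) heads and bodies. Open squares are block 1 libraries, filled circles block 2 libraries, and the grey line is the mean of the log2 values. Acox3 lies far lower in all 4 mutant libraries, FASN2 and Gpo3 separate heads from bodies, and 1 wild-type body library stands apart at Lsp1beta.

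Storage is represented by Lsp1beta (FBgn0002563, 2L from 898500 to 901316, plus strand), which encodes a subunit of the hexamerin that fills larval haemolymph. Wild-type heads had 33.3, 828, 1118 and 668 CPM. Wild-type bodies had 72.4, 268, 14470 and 628 CPM. Mutant heads had 132 and 361 CPM, and mutant bodies 146 and 166 CPM. Body replicate 3 alone held 16407 reads of the gene, and no other library had more than 1305. The wild-type tissue groups overlapped (log2 fold change of head over body −1.06, SE 1.58, edgeR adjusted p = 0.622), and without body replicate 3 the sign turned (0.82, edgeR adjusted p = 0.571). Mutant heads and bodies overlapped too (0.72, SE 1.17, edgeR adjusted p = 0.618). Mutant libraries lay below block 2 wild type in both tissues, 3.62-fold in the mean of heads (247 ± 162 against 893 ± 318 CPM) and 48.5-fold in that of bodies (156 ± 14.4 against 7547 ± 9786 CPM). The body log2 fold change of −5.64 became −1.99 without wild-type body replicate 3. Block 1 wild type overlapped the mutant in heads and in bodies, with replicate 1 below the mutant libraries in each tissue.

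The same library was highest at other larval storage genes. Fbp2, a fat body protein related to alcohol dehydrogenase, had 37.1, 2.79, 272 and 7.30 CPM in wild-type bodies, and Lsp1gamma, a further hexamerin subunit, 5.30, 0, 112 and 12.98 CPM. Sgs1, the only larval salivary gland marker within the regions, had 0 reads in every body library. In mutant bodies Fbp2 had 0 reads and Lsp1gamma 0 and 1.

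**Figure D2:**
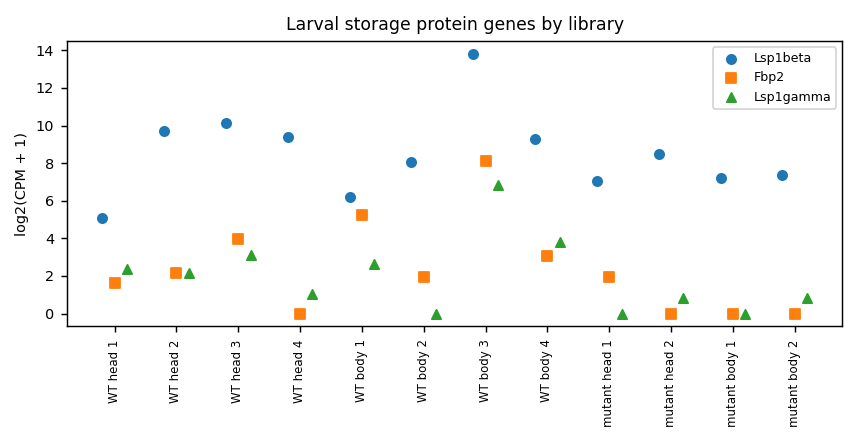
Levels of the larval storage genes Lsp1beta (circles), Fbp2 (squares) and Lsp1gamma (triangles) in each of the 12 libraries, as log2(CPM + 1). All 3 are highest in wild-type (WT) body replicate 3, where Lsp1beta reached 14470 CPM.

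Lip2 (FBgn0024740, 2L from 10701940 to 10709453, minus strand) encodes a lipase, a class that frees fatty acids from glycerides, and its neighbour Lip1 lies 395 nt downstream. In wild-type heads it had 45.7, 6.84, 48.0 and 27.0 CPM, from only 2 to 56 reads. Wild-type bodies had 30.9, 25.1, 29.1 and 29.2 CPM. Mutant heads had 62.6 and 78.9 CPM, and mutant bodies 193 and 42.4 CPM. Opposite-strand reads within the gene outnumbered its own reads in every library but mutant body replicate 1, which had 50 beside 192. Where those reads came from was not examined. The wild-type tissues did not separate (31.9 ± 19.2 against 28.6 ± 2.45 CPM, n = 4 each, log2 fold change −0.02, SE 0.51, edgeR adjusted p = 0.980). Nor did those of the mutant (−0.77, SE 0.70, edgeR adjusted p = 0.373), although without mutant body replicate 1 the sign turned (0.85) and without mutant body replicate 2 the value passed the test (−1.74, edgeR adjusted p = 0.00366). All 4 mutant libraries lay above the block 2 wild-type libraries of their tissue, 1.89-fold in the mean of heads and 4.03-fold in that of bodies. The body mean rests on mutant body replicate 1, since without it the log2 fold change of 2.07 became 0.44.

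Acox3 (FBgn0031813, 2L from 6426724 to 6448403, minus strand) encodes an acyl-CoA oxidase, the class of enzyme that opens peroxisomal beta-oxidation. Wild-type heads had 358, 226, 858 and 797 CPM, and wild-type bodies 417, 327, 1255 and 1231 CPM. Mutant heads had 7.48 and 7.89 CPM, and mutant bodies 2.01 and 3.03 CPM. These mutant values rest on 8, 10, 2 and 4 reads. Every mutant library lay below every wild-type library of either block. The mean was 108-fold lower in mutant heads (7.68 ± 0.291 against 827 ± 43.3 CPM, n = 2 each) and 493-fold lower in mutant bodies (2.52 ± 0.723 against 1243 ± 17.1 CPM, n = 2 each). Between wild-type tissues the groups overlapped (log2 fold change of head over body −0.69, SE 0.28, edgeR adjusted p = 0.0689). It passed with DESeq2 size factors (−0.79, edgeR adjusted p = 0.0275). In the mutant the gene was higher in heads (1.56, SE 0.48, edgeR adjusted p = 0.0247), a call lost in 8 of 9 alternatives. Acox3 entered that test only through the wild-type libraries of the same fit, and failed the low-count filter in the 4 mutant libraries alone. Of its mutant reads, 4 and 8 in heads and 2 and 4 in bodies lay within a copy of the retrotransposon roo, where placement is uncertain. No tissue difference is therefore read from this call. Whether the tissue difference itself differed between genotypes was not tested.

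Genes beside Acox3 gave a local comparison. retm, 60 nt upstream on the same strand, had 257 CPM in mutant heads and 229 in block 2 wild-type heads, with 72.1 against 99.4 CPM in bodies. Fic, 352 nt from the other end on the opposite strand, had 28.7 against 20.1 CPM in heads and 25.6 against 25.7 CPM in bodies.

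Gpo3 (FBgn0028848, 2L from 13708215 to 13710583, plus strand) encodes a glycerol-3-phosphate dehydrogenase of the mitochondrial type and sits inside DIP-kappa, which runs on the opposite strand. Wild-type heads had 2.08, 0, 11.1 and 8.64 CPM, and wild-type bodies 24.7, 25.1, 583 and 810 CPM. Mutant heads had 0 reads in both libraries, and mutant bodies 11.04 and 12.1 CPM. Heads lay below bodies in each genotype. Gpo3 fell in wild-type heads (5.46 ± 5.28 against 361 ± 399 CPM, n = 4 each, log2 fold change −5.83, SE 0.49, edgeR adjusted p = 6.63e-05) and in mutant heads, by at least 9.02-fold taking 3 counts over both libraries as the floor (edgeR adjusted p = 9.2e-04). Bodies of block 1 had 24.9 ± 0.281 CPM and those of block 2 697 ± 161 CPM (n = 2 each). Mutant bodies lay 60.2-fold below the block 2 mean (11.6 ± 0.761 CPM, n = 2), and the block 1 wild-type mean lay 27.95-fold below it. Mutant heads lay at least 7.71-fold below block 2 wild-type heads. All 10 male accessory gland and testis markers also fell in heads, and their part in the Gpo3 tissue difference was not tested.

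Set against all tested genes, the tissue calls of the 6 genes were not frequent. In wild type 2 of 6 were called, both lower in heads, where 49.9% of 2533 tested genes were called and 32.4% were called lower. Those same 2 genes had groups that did not overlap, where 39.1% of tested genes did so in either direction and 27.2% with heads lower. In the mutant 3 of 6 were called, 1 higher and 2 lower, against 55.8% of 2747 tested genes (21.1% higher, 34.7% lower). Mutant heads and bodies did not overlap at 4 of 6, with 78.8% over all tested genes (38.5% with heads higher, 40.3% with heads lower). All 6 genes passed the filter on low counts in each comparison, Acox3 in the mutant only through the wild-type libraries of the same fit. Acox3 was the 1 gene called higher there. The median log2 fold change of the 6 was −0.88 in wild type and −0.04 in the mutant, beside −0.01 and −0.05 over all tested genes.

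**Figure D3:**
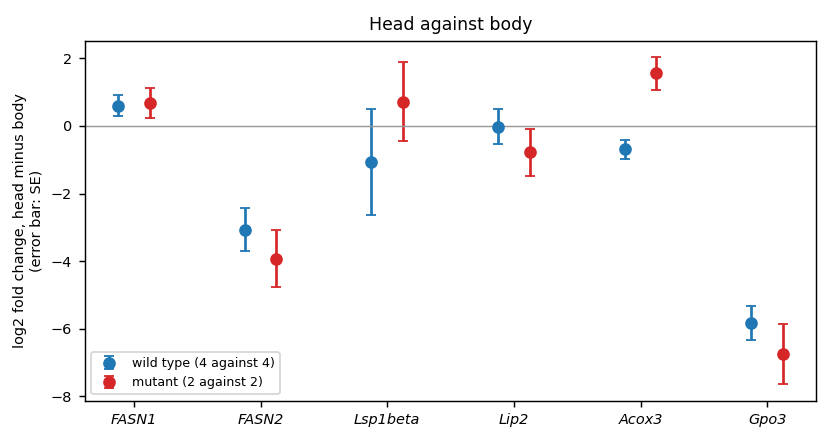
Log2 fold change of heads over bodies for each gene in wild type (blue, 4 against 4 libraries) and in the mutant (red, 2 against 2), with SE as error bars. FASN2 and Gpo3 lie far below 0 in both genotypes. The Gpo3 point in the mutant is a fitted value against heads with 0 reads and is no bound.

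Against block 2 wild type, FASN1, Lsp1beta, Acox3 and Gpo3 lay lower in the mutant without overlap in heads and again in bodies. Lip2 lay higher without overlap in both, and FASN2 overlapped in both. With block 1 included, Lsp1beta overlapped in both tissues. It had 33.3 CPM in wild-type head replicate 1 and 72.4 CPM in wild-type body replicate 1, below the mutant libraries of each tissue. Gpo3 then overlapped in heads, with 0 reads in wild-type head replicate 2 as in the mutant. Over all tested genes, again against block 2, 51.8% did not overlap in heads (24.9% lower, 26.9% higher) and 43.0% in bodies (21.0% and 22.0%). Because the genes were chosen with this contrast known, these counts carry no weight of their own. Some marker sums of other cell types moved too. In mutant bodies muscle markers were lower (3 genes, 754 and 906 CPM against 2036 and 3512 CPM in block 2 wild type), and so were haemocyte (4 genes, 168 and 172 against 206 and 262 CPM), neuronal (140 and 146 against 182 and 253 CPM) and male accessory gland and testis markers (21240 and 22970 against 28330 and 36270 CPM). In mutant heads muscle markers (1413 and 2568 against 3222 and 3459 CPM) and neuronal markers (2729 and 3129 against 3351 and 3540 CPM) were lower, while haemocyte markers were higher (384 and 440 against 320 and 321 CPM). Not every gene followed its sum. In mutant bodies the log2 fold change lay below 0 for 4 of 5 neuronal, 2 of 3 tested haemocyte and 7 of 10 male accessory gland and testis markers. The neuronal marker Gad1 was higher there without overlap (27.33 against 12.03 CPM). So was the haemocyte marker NimC1 (13.34 against 7.318 CPM). Of the other haemocyte markers tested, Pxn was lower without overlap (86.73 against 147.2 CPM) and NimB5 overlapped. The part of these marker sums in the differences was not tested.

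The 3' ends of these genes ranged from a single site to several. Positions within 24 nt of each other on a strand were joined into a site. Lsp1beta ended almost only at 901320, 4 nt past its annotated end, which held 98.96 to 100% of its reads in every library. FASN2 ended mainly at 3055603, 119 nt past the stop codon. In block 2 this end held 76.3% of reads in wild-type heads and 96.9% in wild-type bodies, beside 83.4% and 97.1% in the mutant. In block 1 it held 8 of 28 reads in heads and 136 of 204 in bodies. A minor site at 3048835, in a FASN2 intron, lies 4 nt past the annotated end of snRNA:U5:23D. It held 26 of 235 reads in wild-type heads and 28 of 4031 in wild-type bodies.

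FASN1 had 2 ends in its 3' untranslated region, 201 nt apart. The proximal one lies at 3067983, 484 nt past the stop codon, and the distal one at 3068184, 685 nt past it and 7 nt past the annotated end. Distal shares in wild-type block 1 were 0.704 and 1.22% in heads and 2.63 and 3.30% in bodies. In block 2 they were 43.3 and 31.4% in wild-type heads, 49.0 and 41.96% in wild-type bodies, 27.8 and 34.1% in mutant heads, and 19.4 and 21.4% in mutant bodies. The blocks did not overlap, and the block with the higher FASN1 level had the lower distal share. Between wild-type heads and bodies FASN1 site choice, distal over proximal, did not pass the test (log2 −0.99, SE 0.48, edgeR adjusted p = 0.207).

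Lip2 used the most ends. The farthest, at 10701892, lies 506 nt past the stop codon and 48 nt past the annotated end. It held 119 of 218 wild-type reads and was present in 6 of 8 libraries, those without it, both of block 1, having only 2 and 9 Lip2 reads. In block 2 alone it held 51 of 81 reads in wild-type heads and 29 of 69 in wild-type bodies. None of the 415 mutant reads ended there, which allows a share of up to 0.723%. A site at 10702061, 337 nt past the stop codon, showed the opposite: 0 of 218 wild-type reads, which allows up to 1.38%, and 43 of 415 mutant reads, present in 4 of 4 libraries with shares of 14.9, 15.0, 8.85 and 1.79%. The end at 10702159, 239 nt past the stop codon, held 11 of 81 and 25 of 69 reads in block 2 wild-type heads and bodies, and 85 of 167 and 205 of 248 in those of the mutant. The end at 10702230 held 16 of 81 and 7 of 69 reads in block 2 wild-type heads and bodies. Its shares in the mutant were 22.4 and 28.0% in heads and 1.56 and 23.2% in bodies, the low one from mutant body replicate 1, which supplied 192 of the 415 mutant reads. An intronic end at 10703469 had 11 mutant reads and no wild-type read. These limits cover counting error only, pool libraries, and come from the contrast that was known when the gene was chosen, so no test is given. Between wild-type tissues the Lip2 site choice did not pass the test either (log2 1.63, SE 1.13, edgeR adjusted p = 0.412). Among 723 site pairs 18.9% were called, and 0 of the 2 tested here, with 0 at an unadjusted p under 0.05 and 0 by limma on log2 ratios.

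**Figure D4:**
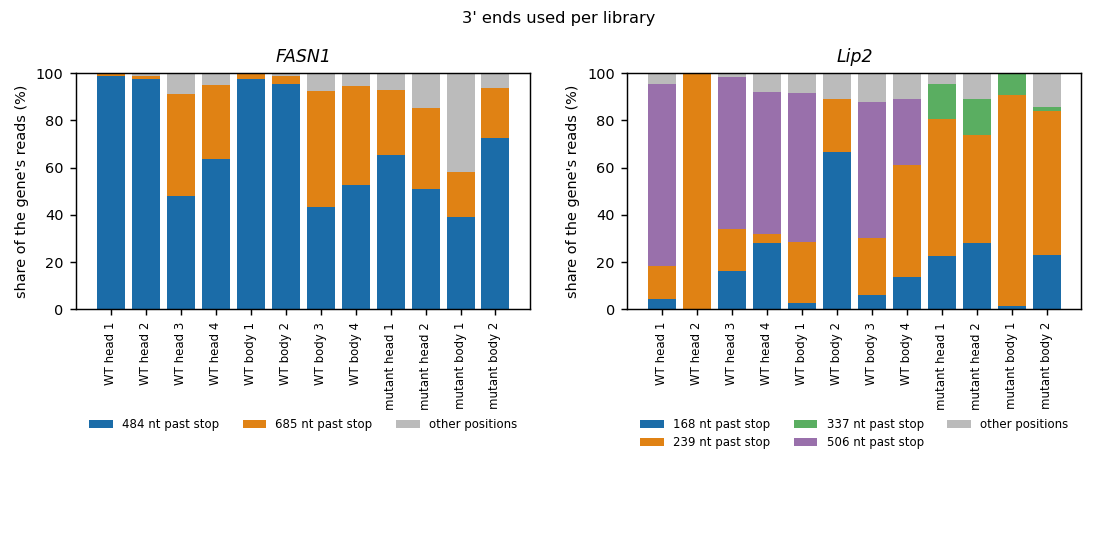
Share of the reads of FASN1 (left) and Lip2 (right) at each 3' end, in percent, for each library, with ends named by their distance past the stop codon and grey for all other positions. In FASN1 the distal end is nearly unused in wild-type (WT) replicates 1 and 2. In Lip2 the purple end, 506 nt past the stop, is seen in wild type and the green end, 337 nt past it, in the mutant.

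Gpo3 ended mostly at 13710581, 136 nt past the stop codon and 2 nt before the annotated end, with 1675 of 1719 wild-type reads. A second end, 42 nt farther at 13710623, held 18 of 37 reads in block 1 wild-type bodies, 6 of 1660 in those of block 2, and 4 of 27 in mutant bodies. By library the second end had 10 and 8 reads in block 1 wild-type bodies, 4 and 2 in those of block 2, and 3 and 1 in mutant bodies. Its larger share in the mutant thus went with fewer reads at the main end and not with more at the second.

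Acox3 has an annotated 3' untranslated region of 18398 nt, which holds 3 annotated copies of the retrotransposon roo. The first begins 10 nt past the stop codon and runs for 9099 nt on the strand opposite to the gene. The next is 4450 nt long on the same strand, and the third 4653 nt on the opposite strand. Of the other 5 genes none overlaps an annotated transposable element.

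Nearly all Acox3 reads of wild type ended beyond the roo copies. The end at 6426748, 18374 nt past the stop codon, held 5403 of 5506 wild-type reads, with 96.1 to 98.95% in each of the 8 libraries. In the mutant it held 3 of 8, 1 of 10, 0 of 2 and 0 of 4 reads. Within the first roo copy, on the strand of Acox3, mutant libraries had 4, 8, 2 and 4 reads, whereas wild type had 1 read over all 8 libraries. The coding part and introns held 2 mutant and 8 wild-type reads. On the strand opposite to Acox3, the coding part and introns had 1 and 0 reads in mutant heads, 15 and 7 in mutant bodies, and 1 over all 8 wild-type libraries. The first roo copy had 1, 2, 1 and 2 reads on that strand in the mutant and 0 in wild type. The sources used here do not say how the alignment placed reads that match several copies of roo, and counts inside it are uncertain.

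**Figure D5:**
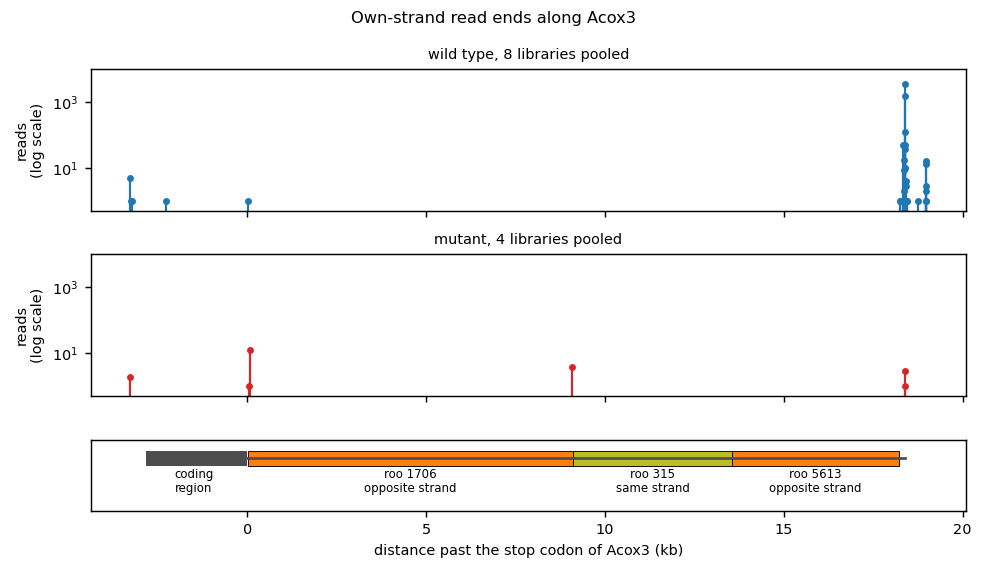
Read ends on the strand of Acox3, plotted by distance past its stop codon in kb, with pooled read counts on a log scale for the 8 wild-type (top) and 4 mutant libraries (middle), above a map of the coding region and the 3 roo copies (bottom). Wild-type reads pile up past the last annotated roo copy, where the end 18374 nt past the stop in the reference holds 5403 reads, while the mutant has 4 there.

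Other genes of the same pathways were taken from lists that had been written with earlier results of these data known. The p-values and counts of all these lists carry that choice and are no independent support for a change of a pathway. Fatty acid synthesis had 3 of its 23 listed genes in the named regions, and none was called in any of the 4 contrasts by edgeR with all libraries of the contrast. Without mutant body replicate 2, bgm, an acyl-CoA synthetase, rose in mutant heads over bodies (2.49, edgeR adjusted p = 0.0174), and without mutant body replicate 1 so did Fatp1, a fatty acid transporter (0.97, edgeR adjusted p = 0.0365). Between genotypes bgm, Fatp1 and hll had log2 fold changes of 0.15, −0.01 and −0.62 in heads. The median of the 3 was −0.01 in that contrast, beside 0.04 over all tested genes. In bodies all 3 lay below 0 (bgm −0.62, Fatp1 −0.33, hll −3.28), with a median of −0.62 beside 0 over all tested genes. Only Fatp1 did not overlap there.

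Lipases and lipid droplet proteins had 15 tested genes of 29 listed. Between wild-type tissues 3 rose and 7 fell in heads, among them CG17097 (86.6 against 4763 CPM, log2 −6.16, edgeR adjusted p = 2.5e-04) and CG2772 (3.50 against 84.4 CPM, −4.63, edgeR adjusted p = 1.1e-04), both predicted lipases. In the mutant 2 rose and 6 fell in heads. Of all tested genes 17.5% were called higher and 32.4% lower in wild-type heads, and 21.1% and 34.7% in mutant heads. Between genotypes 2 fell in heads and 2 in bodies, where 1.09% and 2.77% of all tested genes were called (0.473% lower and 0.619% higher in mutant heads, 1.31% lower and 1.46% higher in mutant bodies). CG31872, another predicted lipase, fell in both. Its levels in wild-type bodies were 2711, 69.8, 3204 and 5412 CPM against 6.02 and 5.30 CPM in mutant bodies (−9.54, SE 0.99, edgeR adjusted p = 0.00382). In heads the values of CG31872 were 105 and 21.6 CPM in block 2 wild type and 0.935 and 0.789 in the mutant (−6.07, edgeR adjusted p = 0.0455), from 1 read in each mutant library. The remaining calls were CG18301 in heads (92.4 against 10.9 CPM in the mutant, edgeR adjusted p = 0.0150) and CG2772 in bodies (88.4 against 5.91 CPM in the mutant, edgeR adjusted p = 0.00767). The body call of CG31872 held without any 1 library. That of CG2772 was lost without wild-type body replicate 3 (edgeR adjusted p = 0.110). In heads CG18301 was lost without any 1 of the 4 libraries (edgeR adjusted p from 0.0670 to 0.175), and CG31872 without wild-type replicate 3 or either mutant (from 0.126 to 0.305).

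Fatty acid oxidation, the pathway of Acox3, had 9 tested genes of 34 listed. CG4598 rose (0.97, edgeR adjusted p = 0.0420) and CG4592 fell (−1.15, edgeR adjusted p = 0.00664) in wild-type heads, both relatives of enoyl-CoA isomerases. The first call was lost without any 1 library but head replicate 4 (edgeR adjusted p from 0.0538 to 0.0993), and the other held without any 1 library. CG4592 fell in mutant heads as well (−2.16, edgeR adjusted p = 0.00564, or 0.0522 without mutant head replicate 1). Between genotypes 1 rose and none fell in each tissue. That gene was Dci, an enoyl-CoA isomerase that handles unsaturated fatty acids. It had 1.71 and 3.24 CPM in block 2 wild-type heads and 86.0 and 62.3 CPM in mutant heads (4.90, SE 0.52, edgeR adjusted p = 0.00519). Bodies had 4.41 and 6.49 CPM in wild type and 70.3 and 50.8 CPM in the mutant (3.46, SE 0.46, edgeR adjusted p = 0.0105). The block 1 libraries did not enter that test and had 22.9 and 71.8 CPM of Dci in heads and 12.4 and 47.5 CPM in bodies, and so overlapped the mutant in heads. The Dci call was lost without wild-type head replicate 3 or 4 (edgeR adjusted p = 0.0973 and 0.0670) and without wild-type body replicate 3 or 4 (0.171 and 0.0614). The median of the list was 0.16 in heads and −0.33 in bodies, beside 0.04 and 0 over all tested genes.

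Peroxisome biogenesis had 3 tested genes of 16 listed and no call in any contrast by edgeR with all libraries of the contrast. Pex19, which helps to place membrane proteins in peroxisomes, had 1343 ± 298 CPM in wild-type heads and 642 ± 70.9 CPM in wild-type bodies (n = 4 each), without overlap (0.84, SE 0.32, edgeR adjusted p = 0.0567). It passed with the replicate number as a block (edgeR adjusted p = 0.01225), with block 2 alone (0.0247), without head replicate 1 or 2 (0.0352 and 0.0272), without body replicate 1 or 2 (0.0426 and 0.0383) and by DESeq2 (adjusted p = 0.0122). Glycerol phosphate and triglyceride metabolism, the setting of Gpo3, had 5 tested genes of 20 listed and no call either with all libraries. Its cytosolic partner enzyme Gpdh1 had 13650 and 8514 CPM in block 2 wild-type bodies and 2293 and 4770 CPM in mutant bodies (−1.69, edgeR adjusted p = 0.0931). Gpdh1 passed there without mutant body replicate 2 (−2.20, edgeR adjusted p = 0.00724) and by DESeq2 (adjusted p = 0.0108), and rose in mutant heads over bodies without that library (1.21, edgeR adjusted p = 0.0158).

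Storage and haemolymph proteins had 6 of 19 listed genes in the regions, of which 4 or 5 were tested. Adh could not be counted, since it shares its annotated span with Adhr and reads of overlapping genes were left out. Fbp2 fell in wild-type heads (5.02 against 79.9 CPM, −3.92, SE 1.39, edgeR adjusted p = 0.0422), and without body replicate 3 the value was −1.61 (edgeR adjusted p = 0.412). That call was also lost without body replicate 1 or any 1 of the 4 head libraries (edgeR adjusted p from 0.0512 to 0.0934). In the mutant NLaz, an apolipoprotein D relative, fell in heads (122 against 584 CPM, edgeR adjusted p = 0.00316) and Apoltp, a lipid transfer particle protein, rose (460 against 103 CPM, edgeR adjusted p = 0.0371, lost without either mutant head library at 0.0586 and 0.121). Between genotypes none was called. Lsp1gamma had a log2 fold change of −6.91 in bodies (edgeR adjusted p = 0.0713), which was −4.62 without wild-type body replicate 3 (0.423) and passed without wild-type body replicate 4 (−7.74, edgeR adjusted p = 0.0323). Fbp2, with 0 reads in mutant bodies, had 272 and 7.30 CPM in those of block 2 wild type (edgeR adjusted p = 0.135, or 0.633 without wild-type body replicate 3). By DESeq2 Lsp1gamma passed (adjusted p = 0.00387) and Fbp2 did not (0.153), and with no filter on low counts both did (edgeR adjusted p = 0.00120 and 0.00308).

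Likeness between genes was measured as Pearson's r of log2(CPM + 1) over the 12 libraries, among 2520 genes whose mean reached 10 CPM. It is a description, since the libraries share their block, depth and tissue. FASN1 was most like HemK1 (r = 0.966), CG9515 (0.944) and Lip4, a lipase (0.933), each of them higher in block 1. FASN2 was most like COX5BL (0.941), CG14402 (0.939) and CG4891 (0.931), which had few head reads. Lsp1beta had weaker matches, CG12003 (0.825), Cyt-c-p (0.800) and Cyp4e3 (0.794). Lip2 was most like strat (0.833), Iml1 (0.824) and grk (0.818). For Acox3 the nearest was mthl8 (0.951), with 206 and 75.6 CPM in wild-type heads and bodies and 0 in the mutant, followed by Mco1 (0.906) and CG16772 (0.841). Gpo3 was most like CG33281 (0.891), dmGlut (0.884) and CG33673 (0.881). Among the 6 genes themselves r was highest for FASN2 with Gpo3 (0.750) and FASN1 with Acox3 (0.708), and lowest for FASN1 with Lip2 (−0.724).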

How the data were processed

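The authors deposited, for each of 12 libraries, raw counts of reads at every poly(A) position by chromosome, strand and position, with no normalization. Reads had been aligned with Bowtie2 to BDGP5, per the submitters' processing notes. The sources used here do not give filters on tails or the protocol of each library. Genes came from a BDGP6 annotation and were named only on 2L up to 22258266 and 3L up to 4919024, where 61.7% and 57.4% of positions with at least 200 pooled reads lay within 10 nt of transcript ends at identical coordinates (0.256% and 0.227% after a 5000 nt shift). Elsewhere at most 0.544% did, and no coordinate was converted. Own-strand reads from gene start to 1000 nt past its end, or to the next own-strand gene, were summed. This assigned 91.3% of reads, while 8.02% at overlapping genes and 0.727% between genes were left out.

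Expression was tested with edgeR 4.0.16 in R 4.3.3 (quasi-likelihood test, TMM, filterByExpr, Benjamini-Hochberg at 0.05 over all tested genes): the tissue contrast on 8 wild-type libraries, block included as a term, the other contrasts on 8 block 2 libraries, 4 groups in 1 fit. Site choice compared the distal and proximal of the 2 most used sites past the stop codon, for pairs averaging 20 reads or more whose minor site held 5% or more. DESeq2 1.42.0, limma 3.58.1 (0.5 reads added), Python 3.11.15, numpy 2.4.6, pandas 2.3.3 and matplotlib 3.10.9 were also used. On simulated data with a set spread, the wild-type tissue fit called 79.3% of true log2 changes of 1.5 and 100% of those of 3. The fit of mutant against wild-type bodies called 36.5% and 97.9%, so changes of 1.5 between genotypes can go uncalled. The site choice fit called 79% of changes of 3. No replicate pair agreed within sampling noise.

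The genes and lists were chosen with earlier results of these data known. Named besides the 6 genes are up to 3 genes per list and contrast with the smallest adjusted p, the 3 most similar genes, and neighbours whose mean reached 10 CPM, with per-library levels where a result turns on them. One result that this rule picks is not reported here. Marker sums were chosen for mention after their values were seen. Alternatives were other scaling, filters, tools, windows, blocks and leaving out each library.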

Additional observations from a re-analysis of the deposited data

Results flagged for a closer look

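Over 24 groups examined for a library far from the others, 3 stood out, and chance marks about 1 in 20 such groups. Lsp1beta had 14470 CPM in wild-type body replicate 3, against 72.4 to 628 CPM in the other 3 wild-type bodies. The Lip2 end at 10702159 held 47.2% of reads in wild-type body replicate 4, 17 of 36 reads, against 22.2 to 25.7% in the other 3. The same end held 100% in wild-type head replicate 2, where Lip2 had only 2 reads, against 4 to 17.9% in the other 3 heads.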

How the results depend on the processing

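In wild-type heads against bodies Gpo3 was called lower in 16 of 16 alternatives and FASN2 in 15, and in the mutant both in 10 of 10. The wild-type count of 1264 genes became 796 with no block term and 514 with block 1 alone, where 1 of the 6 genes was called. Leaving out 1 library gave 2 to 4 of them, the 4 without wild-type head replicate 2, when FASN1 (0.96) and Lsp1beta (−2.79) passed as well. Signs turned in that contrast for Lsp1beta with block 1 alone (0.91) and without wild-type body replicate 3 (0.82), and for Lip2 with block 2 alone (0.34) and without head replicates 2 and 4 (0.49 and 0.11) or body replicates 1 and 2 (0.27 and 0.07). In the mutant they turned for Lsp1beta without head replicate 2 (range without 1 library −0.36 to 1.34) and for Lip2 without body replicate 1 (−1.74 to 0.85). Between genotypes FASN2 turned without mutant head replicate 1 (−0.93 to 0.057) and without mutant body replicate 1 (−2.39 to 0.30), while Acox3 stayed between −6.86 and −6.53 in heads and −9.13 and −8.73 in bodies. The genotype count in heads, 30 with 302 genes at an unadjusted p under 0.05, was 81 with no low-count filter, 112 by DESeq2, 367 with heads alone and 5 to 9 without 1 library. In bodies the 76 (487 unadjusted) became 198, 213 and 14 in the same order, and 7 to 885 without 1 library, where 7 came without wild-type body replicate 3, 31 came without the other wild-type body and 885 came without mutant body replicate 2. The 137 site choice calls became 34 with no block term and 80 to 173 without 1 library (89 and 90 without head replicates 3 and 4, 80 without body replicate 4). In each case the cause was not tested. With DESeq2 size factors the median over all genes went from −0.01 to −0.12 in the wild-type tissue contrast and from −0.05 to −0.41 in the mutant one. No Lip2 site value could be had with positions joined within 12 nt or with rare positions left out, and none for Acox3 in a fit of the 4 mutant libraries alone, where it failed the filter.

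Heads and bodies of the same replicate number deviated together in wild type of block 1 (correlation of deviations 0.668 over 2522 genes) but hardly in that of block 2 (0.0776) or in the mutant (0.0136), so the numbers were not taken to pair all libraries. Taking the replicate number as a block, calls were 1593 in wild type, 1490 in the mutant and 294 for site choice, and 3, 2 and 0 of the 6 genes, with Acox3 passing in wild type (−0.68, edgeR adjusted p = 0.0369) and missing in the mutant (0.0582). No paired analysis was possible between genotypes because the groups of block 2 share fewer than 2 numbers.

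Depth limits the mutant Acox3 and Gpo3 values, which rest on at most 10 and 16 reads a library, and the Lip2 shares.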
